A study of Mus musculus with 15 samples.

Results

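Collagen transcripts of mouse quadriceps muscle differed between the ages in opposite directions. Sex-linked transcripts also separated all mice by age, so age and sex cannot be told apart, and "with age" below covers both. The main fibrillar chains Col1a1, Col1a2 and Col3a1 and the type IV chains Col4a3, Col4a4 and Col4a5 were lower at 19 mo than at 3 mo in both wild-type and V338Y mice, whereas Col5a3, Col7a1 and Col20a1 were higher in both. No collagen gene differed between the genotypes at 3 mo or at 19 mo by edgeR's quasi-likelihood test with Benjamini-Hochberg adjustment at 0.05. The only exception, Col15a1 at 19 mo, passed when mouse number was entered as a block, a pairing that the labels do not state. Collagen genes were taken as the protein-coding genes whose symbol is Col, a number, the letter a and a number. There were 44 of them among the 39179 genes counted, of which 11 encode fibrillar chains, 6 the type IV chains of basement membranes and 27 other collagens. A minimum of 10 counts in 50% or more of any group's mice was reached by 37 of the 44, namely 10 fibrillar, 6 basement membrane and 21 other chains. Of all genes 14128 reached it.

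RNA was sequenced from the muscle of 15 untreated C57BL/6 mice, 4 wild-type and 4 V338Y animals aged 3 mo, and 3 wild-type and 4 V338Y animals aged 19 mo. V338Y animals were homozygous for an amino acid exchange in MrpS5, a protein of the mitochondrial ribosome, that makes mitochondrial translation error-prone, and wild-type animals carried the unchanged gene on the same background. The comparison of ages asks how muscle changes between 3 and 19 mo, and that of genotypes whether mitochondrial mistranslation alters this. Mrps5 itself was at 21.2 to 25.5 CPM (counts scaled to library size) in wild-type and 24 to 27.5 CPM in V338Y mice at 3 mo, and at 15.8 to 19.3 and 15 to 18.3 CPM at 19 mo. A gene count does not read the exchange itself.

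The libraries held 8250653 to 18968132 counts, of which collagens made up 0.106 to 0.298%. Xist, the RNA of the inactive X chromosome, was at 507 to 512 CPM in wild-type and 506 to 631 CPM in V338Y mice at 19 mo, but at no more than 0.332 and 0.575 CPM in the same genotypes at 3 mo. The Y-linked genes Ddx3y, Uty, Kdm5d and Eif2s3y showed the reverse. Ddx3y was at 172 to 202 and 163 to 182 CPM in the 2 genotypes at 3 mo and at no more than 0.0827 CPM at 19 mo. The methods describe all 3 mo animals and the wild-type animals at 19 mo as female, which the 3 mo libraries go against. Every mouse at 3 mo had the Y-linked pattern and every mouse at 19 mo had the Xist pattern, so age and sex cannot be told apart in any age comparison here, and no library could be left out to separate them.

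Collagens are built from alpha chains that wind into triple helices. Fibrillar chains of types I and III form the tensile fibers around muscle fascicles and in the muscle's tendinous parts, types V and XI sit inside such fibrils and set their diameter, and type IV forms the sheet of the basement membrane that wraps every muscle fiber and capillary. Type VI microfibrils link that sheet to the surrounding matrix, fibril-associated collagens decorate fibrils, and types XV and XVIII lie at the outer face of basement membranes. In muscle most fibrillar collagen is made by fibroblasts and their progenitors, and type IV also by endothelial and muscle cells.

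The 6 type IV genes lie in head-to-head pairs, each pair read outward from a common start region, and they are shown because the pairs differed in their change with age. In the GRCm38 annotation the starts of Col4a1, on the minus strand, and Col4a2, on the plus strand, overlap by 22 bases on chromosome 8. Those of Col4a4 and Col4a3 are 71 bases apart on chromosome 1, and those of Col4a6 and Col4a5 are 1308 bases apart on chromosome X. Beside them stand the bases just upstream of Col3a1, which fell with age, and of Col5a3 and Col7a1, which rose. All are from RefSeq promoter sequences of GRCm38.p6, 5′ to 3′ on the strand given, with the GC box letters GGGCGG (or their complement CCGCCC) and the TATA box letters TATAAA in capitals.
Around Col4a1 and Col4a2 starts (chr8:11312797-11312834, plus strand): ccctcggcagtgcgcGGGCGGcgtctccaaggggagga
Between Col4a4 and Col4a3 starts (chr1:82586850-82586920, plus strand): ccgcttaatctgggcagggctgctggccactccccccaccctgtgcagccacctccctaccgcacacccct
Upstream of Col4a5 (chrX:141475265-141475384, plus strand): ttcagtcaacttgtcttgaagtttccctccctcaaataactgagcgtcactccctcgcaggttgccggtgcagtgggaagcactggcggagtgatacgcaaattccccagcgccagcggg
Upstream of Col4a6 (chrX:141474077-141474196, minus strand): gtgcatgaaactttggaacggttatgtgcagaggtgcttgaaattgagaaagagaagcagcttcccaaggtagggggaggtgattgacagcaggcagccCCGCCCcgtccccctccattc
Upstream of Col3a1 (chr1:45311418-45311537, plus strand): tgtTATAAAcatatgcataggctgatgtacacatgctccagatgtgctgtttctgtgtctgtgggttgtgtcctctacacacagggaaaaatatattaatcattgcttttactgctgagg
Upstream of Col5a3 (chr9:20815068-20815187, minus strand): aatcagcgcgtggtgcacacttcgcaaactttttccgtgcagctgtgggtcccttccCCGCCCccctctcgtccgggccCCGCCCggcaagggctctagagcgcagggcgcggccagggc
Upstream of Col7a1 (chr9:108953466-108953585, plus strand): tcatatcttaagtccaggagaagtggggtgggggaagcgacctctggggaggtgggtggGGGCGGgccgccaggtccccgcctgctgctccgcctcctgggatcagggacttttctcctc
The first stretch takes in both annotated starts of its pair, the second is the whole gap between the starts of Col4a4 and Col4a3, and the others are the 120 bases before the first annotated base of each gene. G and C made up 76.3% of the bases around the Col4a1 and Col4a2 starts and 69.0% of the gap between Col4a4 and Col4a3, against 40.0% upstream of Col3a1 and 70.0% upstream of Col5a3. Over the full promoter windows (250 bases before to 50 after the RefSeq start), 38 windows covered 35 of the 44 collagen genes, and their median GC content was 59.8% against 52.7% over all 32851 windows. On either strand, GGGCGG was found in 60.5% of collagen windows and 35.7% of all, CCAAT in 34.2% and 37.4%, and TATAAA in 13.2% and 13.6%. Such matches describe the letters and say nothing of binding.

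Compared per length of exon, the summed level of the collagens was made up differently at the 2 ages. Chains of types I and III held 37.6 to 47.0% of the collagen level per kb in wild-type and 44.2 to 48.1% in V338Y mice at 3 mo, and 22.9 to 25.1% and 22.1 to 32.8% at 19 mo, with no overlap between the ages in either genotype. Type IV held 17.7 to 20.5% and 14.5 to 19.4% at 3 mo and 21.5 to 33.4% and 21.5 to 35.3% at 19 mo. Type V also took a larger share in every 19 mo mouse of each genotype than in any 3 mo mouse, whereas the shares of type VI overlapped. Shares of a total rise when another part of it falls, so a larger share is not by itself a higher level. The summed CPM of the collagens had medians of 1957 at 3 mo and 1372 at 19 mo in wild-type. In V338Y mice they were 2059 and 1725, and the ranges of the ages overlapped in each genotype. In mean level per kb of exon, Col3a1, Col1a1 and Col1a2 held the first places at 3 mo in both genotypes, and Col4a1 held the first at 19 mo in both. Col4a1 was then at 25.6 CPM per kb in wild-type and 32.5 in V338Y mice, against 16.8 and 24.9 for Col3a1. These shares take all annotated exons of a gene as its length, so a gene with long, little-used exons is understated. A lower CPM in whole muscle can come from fewer cells of a type or from less RNA per cell, and these cannot be told apart.

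**Figure D1:**
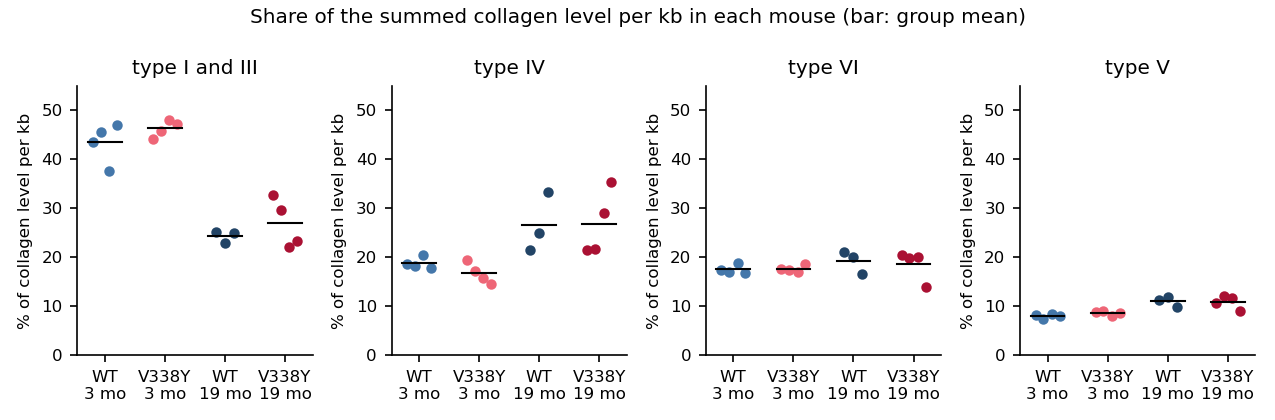
Share of the summed collagen level per kb of exon held by chains of types I and III, IV, VI and V in each mouse (percent, from 0; points are mice, horizontal lines are group means). Types I and III took 37.6 to 48.1% in the 8 mice at 3 mo and 22.1 to 32.8% in the 7 mice at 19 mo.

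Among the fibrillar chains, those of types I and III fell with age. Col1a1, which encodes the more numerous chain of type I collagen, was at 222, 276, 111 and 242 CPM in wild-type mice 1 to 4 at 3 mo and at 83.4, 83.8 and 79.2 CPM in mice 2, 4 and 5 at 19 mo. Values are in the order of mouse numbers throughout. In V338Y mice it was at 183, 209, 252 and 264 CPM in mice 1 to 4 at 3 mo and at 203, 138, 88.2 and 97.1 CPM in mice 2 to 5 at 19 mo. Every wild-type mouse at 19 mo lay below every one at 3 mo, with mouse 3 at 3 mo nearest to them, whereas V338Y mouse 2 at 19 mo reached the level of the younger V338Y mice. Col1a1 fell 2.58-fold in wild-type (log2 fold change −1.37 ± 0.26 SE, edgeR adjusted p = 0.0041) and 1.71-fold in V338Y mice (−0.77 ± 0.25, adjusted p = 0.030).

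Its partner Col1a2, the other chain of type I, was at 349, 385, 197 and 380.2 CPM in wild-type mice at 3 mo and 152, 141 and 140.2 CPM at 19 mo. In V338Y mice Col1a2 was at 305, 339, 358 and 391 CPM at 3 mo and 301, 218, 148 and 119 CPM at 19 mo. The ages did not overlap in either genotype, and the gene fell by 1.18 ± 0.21 on the log2 scale in wild-type (edgeR adjusted p = 0.0031) and by 0.81 ± 0.26 in V338Y mice (adjusted p = 0.026). Col3a1, the type III chain of stretchable fibrils, was at 364, 339, 181 and 524 CPM in wild-type mice at 3 mo and 167, 155 and 174 CPM at 19 mo. In V338Y mice Col3a1 was at 642, 477, 455 and 443 CPM at 3 mo and 413, 259, 194 and 111 CPM at 19 mo. Mouse 3 of the 3 mo wild-type group and mouse 2 of the 19 mo V338Y group lay closest to the other age, and no mouse crossed it. Col3a1 fell 2.13-fold in wild-type (−1.09 ± 0.28, edgeR adjusted p = 0.016) and 2.04-fold in V338Y mice (−1.03 ± 0.33, adjusted p = 0.029).

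Type V and XI chains, which regulate fibril assembly, did not move together. Col5a3, a chain of a rarer type V form, was at 33.5, 24.3, 16.9 and 27.7 CPM in wild-type mice at 3 mo and 61.4, 52.9 and 48.6 CPM at 19 mo. In V338Y mice Col5a3 was at 38.5, 35.0, 27.1 and 36.0 CPM at 3 mo and 98.4, 75, 72.8 and 38.8 CPM at 19 mo. All older mice lay above all younger ones of their genotype, by 2.13-fold in wild-type (log2 fold change 1.09 ± 0.20, edgeR adjusted p = 0.0032) and 2.10-fold in V338Y mice (1.07 ± 0.24, adjusted p = 0.0060). The main type V chains Col5a1 and Col5a2 did not pass the test in either genotype, with log2 fold changes of −0.20 and −0.44 in wild-type and −0.18 and −0.32 in V338Y mice. Col11a1 and Col11a2, chains of type XI, passed in wild-type and in opposite directions. Col11a1 fell from 6.89 ± 2.53 CPM (mean ± SD, here and below, n = 4) to 2.99 ± 0.796 CPM (n = 3, edgeR adjusted p = 0.018) and Col11a2 rose from 4.10 ± 0.625 to 7.23 ± 2.28 CPM (adjusted p = 0.022). In V338Y mice Col11a1 was at 3.56, 8.01, 7.94 and 7.84 CPM at 3 mo and 8.01, 4.96, 4.02 and 4.56 CPM at 19 mo. The interaction of age and genotype for Col11a1 had an unadjusted p of 0.089 in edgeR. Col27a1, a fibrillar chain best known from cartilage, rose in V338Y mice from 3.27 ± 0.635 to 4.69 ± 0.306 CPM (edgeR adjusted p = 0.034). Col24a1, a further fibrillar chain, passed in neither genotype.

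None of the fibroblast markers passed the test downward beside these chains. The 6 markers of fibroblasts and fibro-adipogenic progenitors, Pdgfra, Dcn, Lum, Cd34, Ly6a and Dpt, summed to 825 to 932 CPM in wild-type mice at 3 mo and 751 to 1141 CPM at 19 mo. Their sum was 846 to 970.4 and 569.7 to 1047 CPM in V338Y mice. With age 1 of the 6 rose in wild-type and 0 in V338Y mice, 0 fell, and none was at 0 in any group. Per read of Dcn, a small proteoglycan of these cells that binds type I collagen, Col1a1 had 0.185 to 0.473 counts in wild-type mice at 3 mo and 0.107 to 0.160 at 19 mo, without overlap. In V338Y mice this ratio was 0.326 to 0.417 at 3 mo and 0.134 to 0.318 at 19 mo. V338Y mouse 5 at 19 mo stood apart, with Dcn at 354 CPM against 639 to 672 CPM in the other mice of its group. Tendon cell markers (Tnmd, Scx, Mkx, Fmod, Thbs4 and Kera) summed to 188 to 352 and 166 to 275 CPM in the younger wild-type and V338Y groups and to 352 to 518 and 193 to 549 CPM at 19 mo. Of these 6 genes 1 rose in each genotype. Over all genes 18.3% rose and 17.8% fell with age in wild-type, and 24.4% rose and 22.5% fell in V338Y mice.

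**Figure D2:**
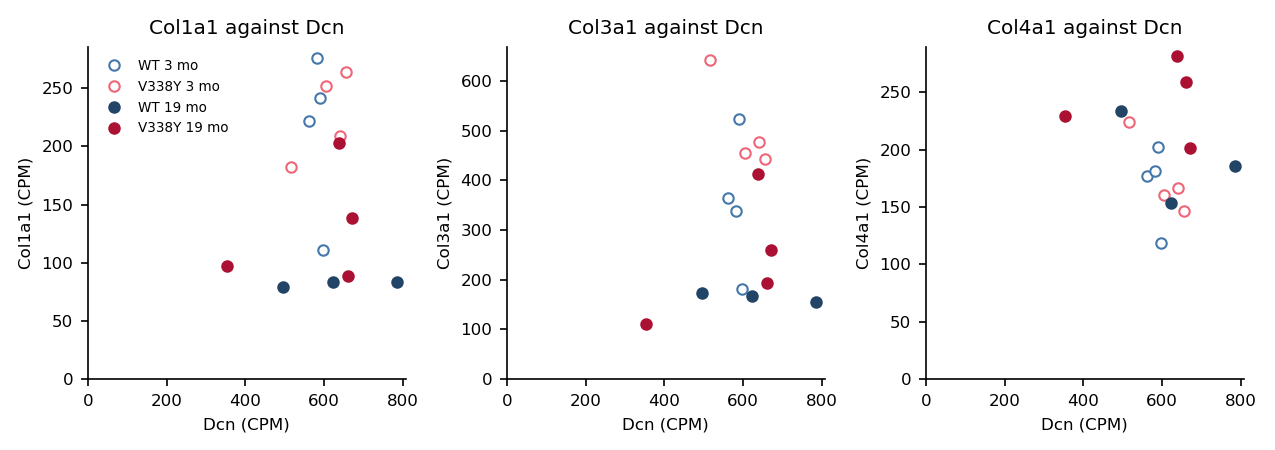
CPM of Col1a1, Col3a1 and Col4a1 against CPM of Dcn in each of the 15 mice (open circles 3 mo, filled 19 mo; both axes linear from 0). Dcn spans 354 to 786 CPM at 19 mo and 515 to 656 CPM at 3 mo, and Col1a1 of the 3 wild-type mice at 19 mo stays between 79.2 and 83.8 CPM.

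The type IV chains did not move alike. Col4a3, a chain of the alpha 3, 4, 5 network best known from the kidney glomerulus, was at 8.66, 10.6, 5.24 and 7.25 CPM in wild-type mice at 3 mo and 2.92, 3.11 and 2.73 CPM at 19 mo. In V338Y mice Col4a3 was at 7.70, 8.29, 6.87 and 10.8 CPM at 3 mo and 2.60, 3.22, 3.81 and 3.34 CPM at 19 mo. Its neighbor across the 71 base gap, Col4a4, was at 8.48, 10.2, 5.31 and 6.44 CPM at 3 mo and 4.35, 3.48 and 3.80 CPM at 19 mo in wild-type. In V338Y mice Col4a4 was at 6.67, 9.05, 7.78 and 7.49 and 3.21, 3.82, 4.02 and 2.31 CPM. No mouse at 19 mo reached a 3 mo mouse of its genotype for either gene. Col4a3 fell 2.70-fold in wild-type (log2 fold change −1.43 ± 0.24, edgeR adjusted p = 0.0023) and 2.55-fold in V338Y mice (−1.35 ± 0.19, adjusted p = 0.00047). Col4a4 fell 1.95-fold (edgeR adjusted p = 0.012) and 2.31-fold (adjusted p = 0.0011).

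Col4a5, the X-linked chain of the same network, was at 11.9, 11.1, 8.89 and 12.7 CPM in wild-type and 10.1, 15.2, 11 and 13.6 CPM in V338Y mice at 3 mo. At 19 mo it was at 6.40, 5.04 and 4.88 CPM in wild-type and 7.21, 7.44, 6.53 and 4.63 CPM in V338Y mice. Again the ages did not overlap, and the gene fell 2.03-fold in wild-type (edgeR adjusted p = 0.0020) and 1.91-fold in V338Y mice (adjusted p = 0.0031). Col4a6, its head-to-head neighbor on chromosome X, was much scarcer, at 0.771 to 3.01 CPM over all 15 mice, and passed in neither genotype.

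The abundant pair that builds the common type IV network did not share this fall. Col4a1 was at 177, 182, 119 and 203 CPM in wild-type mice at 3 mo and 153, 186 and 234 CPM at 19 mo. In V338Y mice Col4a1 was at 224, 167, 160.2 and 147 CPM at 3 mo and 282, 201, 259 and 229.6 CPM at 19 mo. Its partner Col4a2 was at 98.9, 97.1, 62.2 and 98.5 CPM at 3 mo and 89.8, 111 and 146 CPM at 19 mo in wild-type. In V338Y mice Col4a2 was at 122, 93.0, 83.5 and 81.3 and 160.5, 122, 148 and 145 CPM. In wild-type neither passed the test, with log2 fold changes of 0.17 ± 0.19 and 0.38 ± 0.20. In V338Y mice both rose, Col4a1 1.41-fold (edgeR adjusted p = 0.026) and Col4a2 1.53-fold (adjusted p = 0.0073). Neither gene was called for a genotype difference in this change (interaction, edgeR adjusted p = 0.73 and 0.81). Per length, there were 22.9 to 37.3 Col4a1 transcripts for each Col4a3 transcript in wild-type mice at 3 mo and 70.1 to 114 at 19 mo, and 18.1 to 38.8 and 83.4 to 144 in V338Y mice.

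Some markers of the vessel wall rose in the same older mice, where 18.3% of all genes rose in wild-type and 24.4% in V338Y mice. Of 5 endothelial markers (Pecam1, Cdh5, Kdr, Tie1 and Tek), 2 rose in wild-type and 3 in V338Y mice, their sum being 162 to 203 CPM at 3 mo and 211 to 328 CPM at 19 mo in wild-type, and 159 to 186 and 226 to 353 CPM in V338Y mice. Of 5 pericyte and smooth muscle markers (Rgs5, Cspg4, Pdgfrb, Myh11 and Abcc9), 4 rose in each genotype, with sums of 600.0 to 639.5 CPM at 3 mo and 785 to 1005 CPM at 19 mo in wild-type and of 527 to 614 and 704 to 899 CPM in V338Y mice. None of these 10 markers was at 0 in any group, and their part in the type IV levels was not tested.

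**Figure D3:**
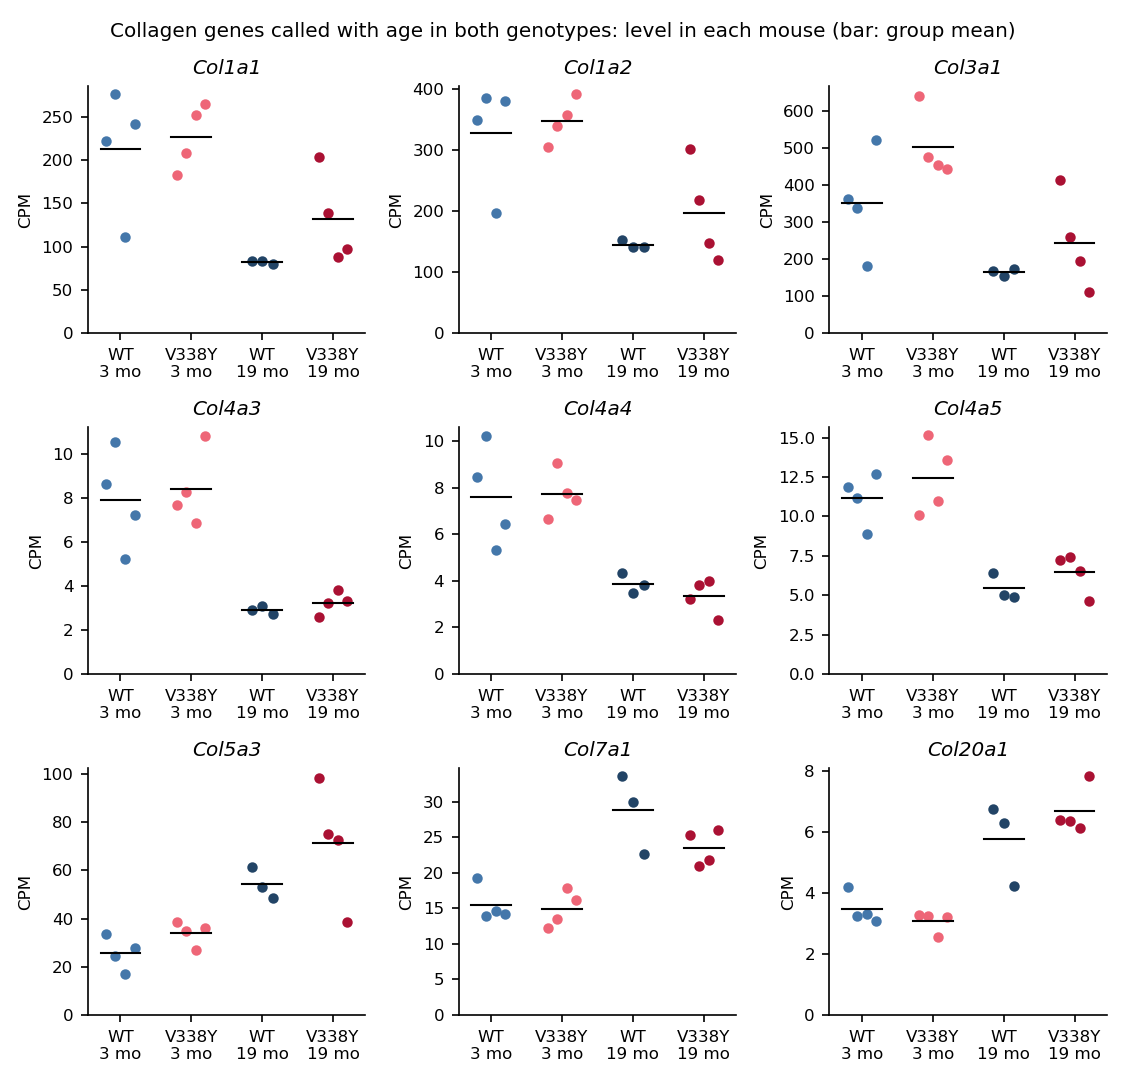
CPM in each mouse (points; horizontal lines are group means) of the 9 collagen genes that passed the age test in both genotypes. Col1a1, Col1a2, Col3a1, Col4a3, Col4a4 and Col4a5 are lower at 19 mo and Col5a3, Col7a1 and Col20a1 higher, with Col1a1 of V338Y mouse 2 at 19 mo (203 CPM) within the range of the 3 mo mice.

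Of the other collagens, Col7a1 and Col20a1 rose in both genotypes. Col7a1, the anchoring fibril chain best known from skin, was at 19.3, 14, 14.6 and 14.2 CPM in wild-type mice at 3 mo and 33.7, 30.002 and 22.7 CPM at 19 mo. In V338Y mice Col7a1 was at 12.2, 13.5, 17.9 and 16.3 CPM at 3 mo and 25.3, 20.9, 21.9 and 26 CPM at 19 mo. The rise was 1.86-fold in wild-type (edgeR adjusted p = 0.0032) and 1.59-fold in V338Y mice (adjusted p = 0.0039), with no overlap. Col20a1, a fibril-associated collagen, was at 4.19, 3.26, 3.32 and 3.08 CPM in wild-type mice at 3 mo and 6.78, 6.30 and 4.22 CPM at 19 mo. In V338Y mice Col20a1 was at 3.28, 3.24, 2.56 and 3.23 CPM at 3 mo and 6.41, 6.37, 6.12 and 7.84 CPM at 19 mo. It rose 1.67-fold in wild-type (edgeR adjusted p = 0.020) and 2.19-fold in V338Y mice (adjusted p = 0.00045) although wild-type mouse 1 at 3 mo and mouse 5 at 19 mo stood at 4.19 and 4.22 CPM.

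Further calls were made in 1 genotype each. In wild-type, the fibril-associated Col14a1 rose from 29.6 ± 6.33 to 46.9 ± 10.6 CPM (edgeR adjusted p = 0.025). Col19a1, a fibril-associated chain, fell from 6.07 ± 0.741 to 2.75 ± 1.27 CPM (adjusted p = 0.015). The V338Y groups held 4 mice at each age. In them Col18a1, whose end fragment is endostatin, rose from 11.3 ± 2.10 to 17.2 ± 3.36 CPM (edgeR adjusted p = 0.019). Col12a1, a fibril-associated collagen of tendon and muscle fascia, rose from 38.1 ± 8.09 to 64.1 ± 20.5 CPM (adjusted p = 0.033). Col13a1, a transmembrane collagen of the neuromuscular junction, rose there from 0.824 ± 0.303 to 1.70 ± 0.496 CPM (edgeR adjusted p = 0.034) and lay higher in every older wild-type mouse too, without passing (adjusted p = 0.057). With 22, 8, 7 and 6 counts in V338Y mice at 3 mo it reached the count minimum only at 19 mo in this genotype, so its level there decided that it was tested.

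The abundant type VI chains Col6a1, Col6a2 and Col6a3, which form the microfibrils around each fiber, passed in neither genotype, with log2 fold changes between −0.27 and 0.17. Col6a6, a scarcer chain that can stand in for Col6a3, fell in V338Y mice from 15.9 ± 4.61 to 7.65 ± 3.96 CPM (edgeR adjusted p = 0.027), and in wild-type its change was −0.65 on the log2 scale (adjusted p = 0.060). Col6a5 was called up in V338Y mice (log2 fold change 2.55 ± 0.80, edgeR adjusted p = 0.025) and was at 0.862, 0.762, 1.24 and 1.27 CPM in V338Y mice 1 to 4 at 3 mo and 7.51, 0.469, 13.5 and 2.89 CPM in mice 2 to 5 at 19 mo. V338Y mice 2 and 4 at 19 mo held the high values, and mouse 3 lay below every 3 mo mouse of its genotype.

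Of the 35 collagens tested in both genotypes, 14 passed in neither. Besides those already named they were Col8a1 and Col8a2, short network-forming chains of vessel walls, Col15a1, Col16a1, a fibril-associated chain, Col22a1, Col23a1, a transmembrane collagen, and Col28a1. Over all 15 mice Col8a1 ranged from 4.41 to 10.0 CPM, Col8a2 from 2.44 to 9.52, Col16a1 from 5.64 to 15.7, Col22a1 from 23.4 to 41.1, Col23a1 from 0.796 to 3.21 and Col28a1 from 0.744 to 3.09 CPM. Their log2 fold changes with age lay between −0.28 and 0.54 in wild-type and between −0.054 and 0.75 in V338Y mice.

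Col9a1, a chain of cartilage fibrils, showed the steepest fall (log2 fold change −2.89 ± 0.60 in V338Y mice, edgeR adjusted p = 0.0034), but it held only 18, 6, 20 and 9 counts in V338Y mice at 3 mo and 0, 4, 1 and 2 at 19 mo. It passed the count minimum in that younger group alone, so the level in that group decided that it was tested, and it was not tested in wild-type. Col17a1, a hemidesmosome component of epithelia, likewise passed only through V338Y mice at 19 mo (10, 5, 23 and 4 counts). Among the genes that did not pass, Col26a1 reached 11 counts in 1 mouse, Col9a3 and Col25a1 at most 10, Col9a2 at most 5, Col6a4 at most 4 and Col10a1 at most 2. Col2a1, the main cartilage collagen, held 29 counts in V338Y mouse 5 at 19 mo and at most 7 in any other mouse. Chondrocyte markers were scarce as well. Acan was at 0 in 6 of the 15 mice and at most 0.201 CPM. The list (with Comp, Sox9, Matn3 and Cnmd) summed to 12.4 to 16.3 CPM in wild-type mice at 3 mo, 9.37 to 18 in V338Y mice at 3 mo, 15 to 42.0 in wild-type at 19 mo and 19.4 to 52.1 CPM in V338Y mice at 19 mo. Matn3 was at 0 in 2 mice and Cnmd in 3. Of the 2 chondrocyte markers tested 1 rose in wild-type and 2 in V338Y mice, where 18.3% and 24.4% of all genes rose.

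In all, 5 of 35 collagens tested rose and 8 fell with age in wild-type, where 18.3% of all 13657 genes tested rose and 17.8% fell. In V338Y mice 10 of 37 rose and 8 fell, against 24.4% and 22.5% of 13868 genes. Of these 37, Col9a1, Col13a1 and Col17a1 reached the minimum at 1 age only, and among the remaining 34 genes 9 rose and 7 fell, with a median log2 fold change of 0.29. As shares, 14.3% and 27.03% of collagens rose and 22.9% and 21.6% fell in wild-type and V338Y mice, shares near those of all genes. Among fibrillar chains 2 of 10 rose and 4 fell in wild-type, and 2 rose and 3 fell in V338Y mice. Of the 6 basement membrane chains 0 rose and 3 fell in wild-type and 2 rose and 3 fell in V338Y mice, and of the other chains 3 of 19 rose and 1 fell in wild-type and 6 of 21 rose and 2 fell in V338Y mice. The median log2 fold change of the collagens tested was 0.015 with age in wild-type and 0.41 in V338Y mice, that of all genes 0.019 and 0.072. The V338Y median was 0.19 without mouse 2 at 19 mo and 0.20 without mouse 4 at 19 mo, and the wild-type median lay between −0.12 and 0.12 when each mouse was left out in turn.

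Of the 35 collagens tested in both genotypes, 32 changed in the same direction and 9 passed in both, all 9 in the same direction, which was 69.2% of the 13 wild-type calls and 52.9% of the 17 V338Y calls among them. Pearson's r between the 2 sets of log2 fold changes was 0.88 across these 35 genes, which are not independent of each other. The comparisons rest on different mice, but the mice of both share the sex-linked difference between ages. Of all genes, 4940 of 13657 were called with age in wild-type and 6505 of 13868 in V338Y mice. Their agreement between genotypes is not given here, so that of the collagens is not read as particular to them. Leaving out single mice changed the V338Y counts most. Without V338Y mouse 2 at 3 mo 4 collagens rose and 4 fell, without mouse 3 at 3 mo 6 and 4, without mouse 4 at 3 mo 6 and 5, without mouse 2 at 19 mo 4 and 8, without mouse 4 at 19 mo 7 and 4, and without mouse 5 at 19 mo 17 and 7. Over all genes the V338Y calls went from 6505 to 5269, 5182, 5418, 5748, 5708 and 6391 in the same fits, in this order. In wild-type, 3 collagens rose and 10 fell without mouse 3 at 3 mo, 3 and 9 without mouse 2 at 19 mo, and 2 and 7 without mouse 4 at 19 mo. Over all genes the wild-type calls went from 4940 to 3674, 4837 and 3431 in the same fits, in this order.

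Calls that held whichever mouse was left out were those of Col1a1, Col1a2, Col4a3, Col4a4, Col4a5, Col5a3, Col7a1 and Col19a1 in wild-type, and of Col4a2, Col4a3, Col4a4, Col4a5, Col5a3, Col7a1 and Col20a1 in V338Y mice. In wild-type the call of Col3a1 was lost without mouse 4 at 19 mo, that of Col11a1 without mouse 5 at 19 mo and that of Col14a1 without mouse 4 at 19 mo. Those of Col11a2 and Col20a1 were lost without mouse 3 at 3 mo and without mouse 2 or mouse 4 at 19 mo, and that of Col20a1 also without mouse 4 at 3 mo. In V338Y mice the calls of Col1a1, Col1a2 and Col4a1 were each lost without mouse 2, 3 or 4 at 3 mo or mouse 4 at 19 mo, that of Col1a1 also without mouse 5 and that of Col4a1 also without mouse 2 at 19 mo. That of Col3a1 was lost without mouse 1, 2 or 3 at 3 mo or mouse 4 at 19 mo, and that of Col18a1 without mouse 2 or 4 at 3 mo or mouse 2 at 19 mo. Col6a5, Col6a6, Col12a1, Col13a1 and Col27a1 lost theirs without 5, 4, 6, 4 and 6 of the 8 mice, and Col9a1 was not tested without mouse 1 or mouse 3 at 3 mo.

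**Figure D4:**
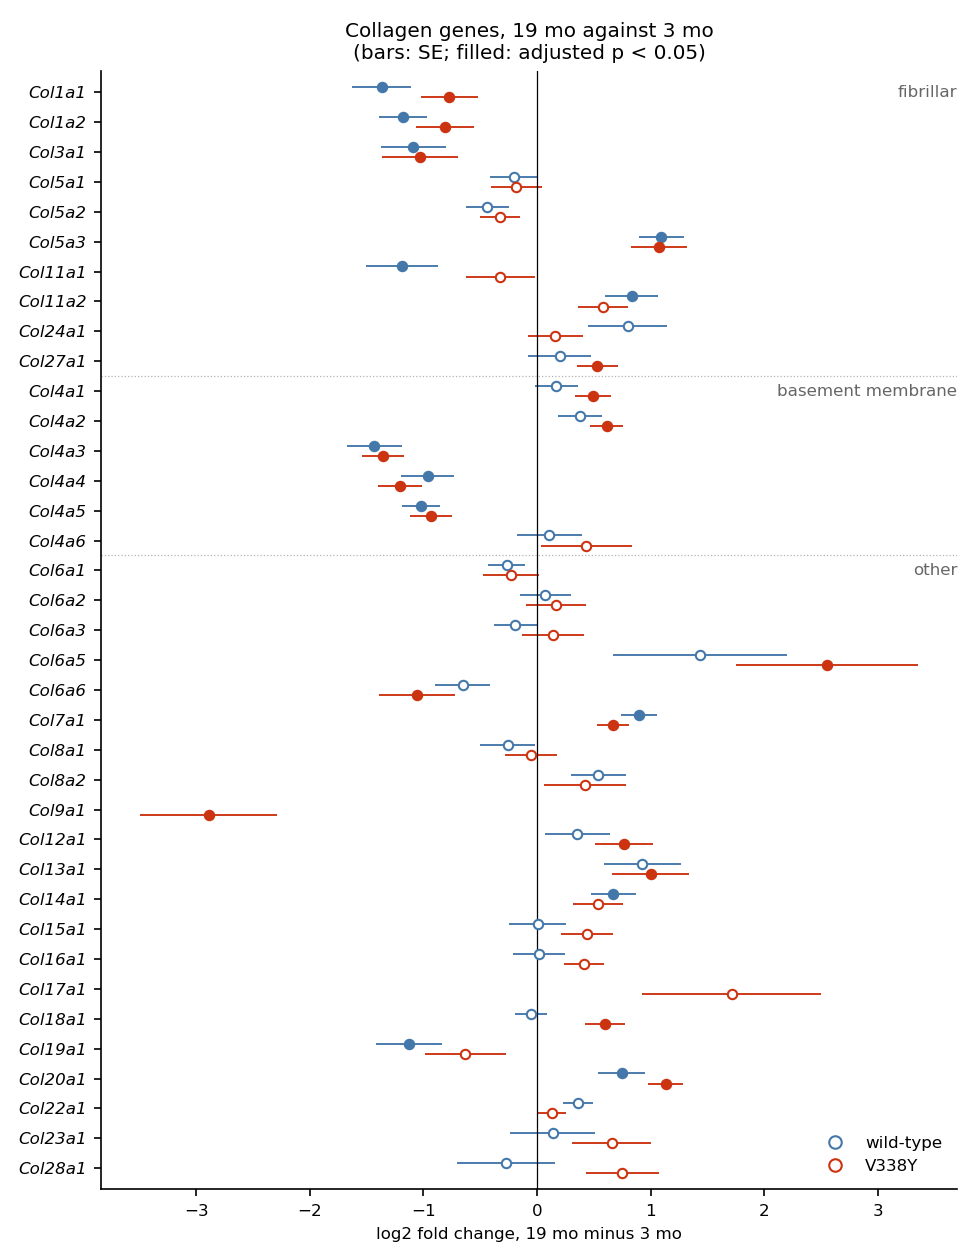
Log2 fold change from 3 to 19 mo of each collagen gene that was tested (points, with SE bars), in wild-type (blue) and V338Y mice (red), by class; filled points had an adjusted p under 0.05. The points of the genotypes lie on the same side of 0 for 32 of the 35 genes tested in both.

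Among the genes that make, process and bind collagen, some passed the test with age in each genotype. The list, chosen by known function, held 50 genes, of which 45 were tested. Of these 9 rose and 2 fell with age in wild-type, and 13 rose and 2 fell in V338Y mice, with median log2 fold changes of 0.12 and 0.24. Of all genes 18.3% rose in wild-type and 24.4% in V338Y mice, so the counts that rose were near the background. Over all genes 17.8% and 22.5% fell, so the 2 list genes that fell in each genotype were fewer than that background. Between genotypes 0 of the list passed, where 0.075% of all genes did at 3 mo and 0.0434% at 19 mo. Among the 8 receptors tested, 5 rose and 1 fell in each genotype. Itga10, the alpha 10 subunit of a collagen-binding integrin, rose from 2.02 ± 0.257 to 5.75 ± 2.14 CPM in wild-type and from 1.18 ± 0.120 to 5.51 ± 0.577 CPM in V338Y mice (edgeR adjusted p = 0.0026 and 5.0e-05). Itga1, a subunit of an integrin that binds type IV collagen, rose from 25.1 ± 3.24 to 36.8 ± 7.74 CPM in wild-type and from 24.2 ± 2.04 to 43.5 ± 6.79 CPM in V338Y mice (edgeR adjusted p = 0.021 and 0.00066).

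Of the 5 breakdown genes tested, 1 rose in wild-type and 3 in V338Y mice. Mmp14, a membrane-bound collagenase, rose from 7.38 ± 1.37 to 18 ± 2.33 CPM in wild-type and from 8.41 ± 0.209 to 20.1 ± 4.72 CPM in V338Y mice (edgeR adjusted p = 0.00058 and 0.00044). Mmp9, a gelatinase that cleaves type IV and denatured collagen, rose in V338Y mice from 4.21 ± 0.739 to 13.9 ± 6.82 CPM (edgeR adjusted p = 0.0016). In wild-type Mmp9 was at 5.19 ± 2.07 and 6.76 ± 1.49 CPM (adjusted p = 0.29, edgeR). Among 19 genes of folding and hydroxylation, 2 rose and 1 fell in wild-type and 4 rose and 1 fell in V338Y mice. The prolyl 3-hydroxylase P3h2 rose in both, from 3.14 ± 0.606 to 5.96 ± 0.913 CPM and from 2.78 ± 0.563 to 6.21 ± 0.643 CPM (edgeR adjusted p = 0.0075 and 0.00075). Plod2, the lysyl hydroxylase of collagen telopeptides, rose from 4.06 ± 0.711 to 8.52 ± 2.0 CPM in wild-type and from 4.99 ± 0.687 to 9.13 ± 2.23 CPM in V338Y mice (edgeR adjusted p = 0.0040 and 0.0065). Mia3, which loads procollagen for export from the endoplasmic reticulum, fell in both, from 210.1 ± 5.62 to 166 ± 2.60 CPM and from 196 ± 14.5 to 138 ± 11.5 CPM (edgeR adjusted p = 0.0094 and 0.0032). Of 6 crosslinking genes 1 rose in each genotype, and of 7 genes of propeptide removal 0 passed in either.

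Further marker lists are given for the muscle as a whole. Beside their counts, 18.3% of all genes rose and 17.8% fell with age in wild-type, and 24.4% rose and 22.5% fell in V338Y mice. Skeletal muscle fiber markers (Acta1, Ckm, Ttn, Myh4 and Tnnt3) summed to 251062 to 295604 CPM in wild-type and 277019 to 306937 CPM in V338Y mice at 3 mo. At 19 mo they summed to 220482 to 274918 and 154931 to 253954 CPM, the V338Y range lying wholly below that at 3 mo. Of these genes 2 of 5 fell with age in wild-type and 3 of 5 in V338Y mice. Macrophage markers (Cd68, Adgre1, Csf1r, Mrc1 and C1qa) rose for 3 of 5 genes in each genotype, with sums of 95.3 to 135 and 109.5 to 152 CPM in the younger wild-type and V338Y groups and 155 to 168 and 133 to 225 CPM at 19 mo. Adipocyte markers (Adipoq, Plin1, Cidec, Lep and Retn) fell for 1 of 5 genes in wild-type and rose for 2 of 5 in V338Y mice, with sums of 90.1 to 312 and 60.7 to 183 CPM at 3 mo and 64.0 to 114 and 83.2 to 409 CPM at 19 mo. Of the satellite cell markers (Pax7, Myf5, Cdh15 and Calcr) 3 were tested and 1 of them fell in V338Y mice, the sums being 16.5 to 20.2 and 16.6 to 20.5 CPM at 3 mo and 18.8 to 21.5 and 13.2 to 21.6 CPM at 19 mo. No marker of the lists given here passed between genotypes, where 0.075% of all genes did at 3 mo and 0.0434% at 19 mo. The part of these lists in the collagen levels was not tested.

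Between genotypes at 3 mo, 0 of 36 collagens passed, where 0.075% of all 13333 genes did. At an unadjusted p under 0.05 in edgeR there were 3 of 36, against 9.7% of all genes. They were Col22a1, a collagen of muscle-tendon junctions, with a log2 fold change of 0.30 ± 0.085 (V338Y minus wild-type), Col5a3 with 0.43 ± 0.18 and Col28a1 with −0.75 ± 0.29. DESeq2 gave 0 calls and 3 genes at the same unadjusted threshold. The median over the collagens tested was 0.098, and it became −0.036 without wild-type mouse 3, which held the lowest level of its group for 26 of the 37 collagens.

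At 19 mo, 30 of 36 collagens tested were higher on average in V338Y than in wild-type mice, with a median log2 fold change of 0.34 against 0.0080 over all genes, but 0 of 36 passed the test, where 0.0434% of all 13833 genes did. At an unadjusted p under 0.05 there were 5 collagens, against 8.93% of all genes, and DESeq2 likewise gave 0 calls and 5 such genes. Col15a1, a proteoglycan collagen at the outer face of the basement membrane, was at 35.1, 24.6 and 22.3 CPM in wild-type mice 2, 4 and 5 and 65.7, 45.7, 38.8 and 32.7 CPM in V338Y mice 2 to 5. It was 1.70-fold higher with 1 V338Y mouse within the wild-type range (log2 fold change 0.77 ± 0.26, edgeR adjusted p = 0.54). Its relative Col18a1 was at 13.1, 13.7 and 11.5 and 20.9, 12.8, 18 and 16.9 CPM (0.45 ± 0.18, adjusted p = 0.54).

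Col1a1 and Col11a1 were the collagens for which every V338Y mouse at 19 mo lay above every wild-type mouse, 2 of 36 where 4.51% of all genes did so, and 0 lay wholly below (5.28% of all genes). Col1a1 was 1.63-fold higher (log2 fold change 0.71 ± 0.27, edgeR adjusted p = 0.54). Col11a1 was at 3.48, 3.41 and 2.07 CPM in wild-type and 8.01, 4.96, 4.02 and 4.56 CPM in V338Y mice (0.86 ± 0.30, adjusted p = 0.54). The fifth gene, Col17a1, had at most 23 counts in any mouse and entered the test through V338Y mice alone. Mouse number was also entered as replicate block, a pairing that the labels do not state and that was taken from the data. V338Y mouse 3, which has no same-numbered wild-type mouse, was then left without weight. In that fit Col15a1 was called (0.75 ± 0.11, edgeR adjusted p = 0.045), 1 of 36. Over all 13833 genes 110 were called with the block, against 6 without it. An unadjusted p under 0.05 was reached by 11 collagens and by 2583 of all genes in the block fit. V338Y mouse 2 held the highest level of its group for 23 of the 37 collagens and mouse 5 the lowest for 20. Wild-type mouse 5 held the lowest of its group for 27. Without V338Y mouse 2 the median was 0.21, without V338Y mouse 5 it was 0.43, and without wild-type mouse 5 it was 0.20. Without V338Y mouse 5, 15 collagens had an unadjusted p under 0.05, as did 1201 of all 13571 genes. With any other mouse left out 3 to 5 collagens did.

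**Figure D5:**
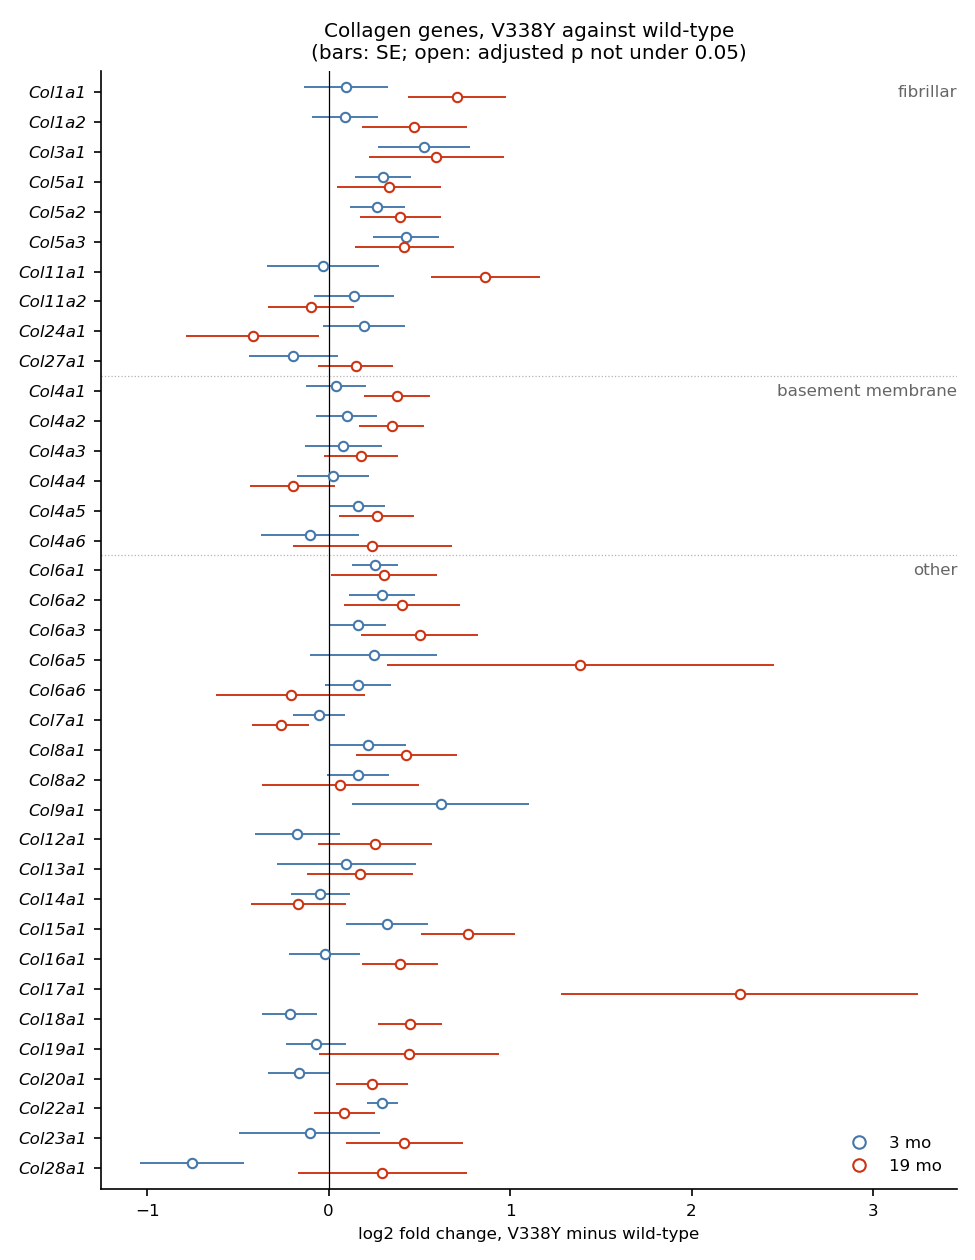
Log2 fold change of each collagen gene tested, V338Y minus wild-type (points, with SE bars), at 3 mo (blue) and 19 mo (red), by class; no point had an adjusted p under 0.05. At 19 mo 30 of 36 points lie above 0, and at 3 mo 24 of 36.

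Whether the change with age differed between genotypes was tested as the interaction of age and genotype, which 0 of 37 collagens and 0.0% of all 14128 genes passed. At an unadjusted p under 0.05 in edgeR there were 2, Col17a1 and Col18a1, against 9.63% of all genes, and DESeq2 gave 0 calls and 2 such genes among the collagens. Col18a1 changed by −0.056 in wild-type and by 0.60 in V338Y mice, a difference of 0.64 ± 0.24 (edgeR adjusted p = 0.47). Col1a1 fell by 1.37 on the log2 scale in wild-type and by 0.77 in V338Y mice, and this difference did not pass either (edgeR adjusted p = 0.64).

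Chains that assemble into 1 molecule can be compared as ratios of their levels per kb of exon. Col1a1 to Col1a2, the chains of type I, stood at 1.06 to 1.36 in wild-type mice at 3 mo, 1.04 to 1.12 at 19 mo, and 1.13 to 1.34 and 1.13 to 1.54 in V338Y mice. The ratio of Col6a1 to Col6a2 had no overlap between the ages in either genotype, being 2.51 to 3.20 at 3 mo and 1.99 to 2.27 at 19 mo in wild-type, and 2.47 to 2.86 and 1.86 to 2.13 in V338Y mice. The exact two-sided permutation test over mice gave p = 0.029 in each genotype, which is the smallest p that 4 against 3 or 4 against 4 mice gave here, and 0.19 after Benjamini-Hochberg adjustment over the 20 tests of 5 ratios in 4 comparisons. Col4a1 to Col4a2 was 1.59 to 1.83 at 3 mo and 1.42 to 1.51 at 19 mo in wild-type (exact permutation p = 0.057, adjusted 0.23), and 1.59 to 1.70 and 1.40 to 1.56 in V338Y mice (exact permutation p = 0.029, adjusted 0.19). None of the 20 tests had an adjusted p under 0.05. Between genotypes at 19 mo, Col1a1 to Col1a2 was at 1.04 to 1.12 in wild-type and 1.13 to 1.54 in V338Y mice (exact permutation p = 0.057, adjusted 0.23).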

How the data were processed

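The authors sequenced quadriceps muscle RNA of 15 mice as stranded single-end libraries. The methods name an mRNA kit and also ribosomal depletion, so how mRNA was enriched is not settled. The deposited values are expected counts per gene, rounded to whole numbers in the files, which the authors made with RSEM on the Ensembl mouse annotation after alignment with STAR 2.4.2a, with base calls from CASAVA 1.8 and bcl2fastq 1.8.4 by the submitters' processing notes. RSEM divides reads that match several genes by estimate, so near-identical genes are uncertain. The mouse build is GRCm38 in those notes but is given under another number in the methods, and gene positions and exon lengths here are from GRCm38. Symbols were matched to 37607 of 39179 gene identifiers. Every column of per-mouse values was used.

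For each comparison, genes reaching 10 counts in 50% or more of either compared group's mice were fitted in edgeR 4.0.16 (R 4.3.3, limma 3.58.1) by quasi-likelihood with TMM factors, on the compared groups alone or on all 15 mice for the interaction, and called at a Benjamini-Hochberg adjusted p under 0.05 over all genes tested. CPM are counts scaled to library totals adjusted by TMM. Standard errors are the size of the log2 fold change before edgeR's shrinkage, divided by the root of F. Printed fold changes are those after it. Chain ratios were compared by exact permutation over mice. Promoter windows and sequences were from RefSeq on GRCm38.p6. The groups and mouse numbers are those of the labels. No libraries held identical values, and replicates differed by 5.47 to 101.0 times the counting noise (chi-square per degree of freedom). Total counts of 8250653 to 18968132 a library set the precision of scarce genes. The p-values set group differences against the spread between mice, which were taken as independent. Nothing states litters, so this could not be checked.

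Deviations of same-numbered mice of the genotypes at 19 mo had correlations of 0.132, 0.239 and 0.400 for mice 2, 4 and 5, against −0.407 to 0.467 between mice of different number. The highest, 0.467, was between wild-type mouse 2 and V338Y mouse 3. These values do not establish a pairing, and the labels state none. The number was entered as a block there as an alternative, and its block value is printed where it changed a call. In a simulation of the wild-type age comparison over 13396 genes, 82 of 100 genes changed 2-fold were called, 19 of 100 changed 1.5-fold and 13 of 13196 unchanged genes. The changed genes were drawn from the better counted ones and were far fewer than the genes called with age here. These rates therefore do not give the chance of a call for the collagens, least of all the scarce ones. Alternatives were RLE and upper quartile factors, DESeq2 1.42.0, edgeR's likelihood ratio test, no filter or filterByExpr, leaving out the 10 most counted genes, an unadjusted threshold of 0.005, 1 fit of all mice, the block, and leaving out each mouse. For chain ratios 0.5 counts were added as an alternative.

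The collagens and lists were chosen with earlier results of these data known. Every collagen that passed the minimum could be named, the others by counts only, and up to 5 called genes with the smallest p of the pathway list in each comparison. A further marker list is not reported here.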

Additional observations from a re-analysis of the deposited data

Results flagged for a closer look

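In 10 of 111 groups of 4 mice that were tested, 1 mouse stood apart from the other 3 by more than Dixon's critical value for the gap over the range, where chance alone flags about 1 group in 20. Wild-type mouse 3 at 3 mo stood low for the type IV chain Col4a2 (62.2 CPM, others 97.1 to 98.9), the type VI chain Col6a1 (56.8 CPM, others 85.2 to 90.1) and the fibril-associated Col16a1 (5.64 CPM, others 10.2 to 11.1). Wild-type mouse 1 at 3 mo stood high for Col7a1, at 19.3 CPM against 14 to 14.6 CPM.

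V338Y mouse 1 at 3 mo stood low for the type XI chains Col11a1 (3.56 CPM, others 7.84 to 8.01) and Col11a2 (2.82 CPM, others 5.05 to 5.3), and for the fibril-associated Col12a1 (26 CPM, others 41.6 to 43.1). In V338Y mouse 3 at 3 mo Col20a1 was at 2.56 CPM, below the 3.23 to 3.28 CPM of the others. V338Y mouse 5 at 19 mo was low for Col14a1 (23.1 CPM, others 44.4 to 48.7) and high for Col20a1 (7.84 CPM, others 6.12 to 6.41). No cause of these values was tested.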

How the results depend on the processing

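Age and sex-linked transcripts change together in all mice, genotype at 19 mo rests on 3 wild-type mice, and genes with few counts, such as Col9a1, Col13a1 and Col17a1, have wide errors. Across the alternatives 525 fold changes of single named genes kept direction and side of the threshold, 62 lost their call and 1 gained it, with none reversed. The collagens called with age in V338Y mice numbered 18, but 8 at an unadjusted p under 0.005 and 8 to 24 when each mouse was left out in turn (8, 10, 11, 11 and 24 without mice 2, 3 and 4 at 3 mo and mice 4 and 5 at 19 mo). In wild-type the collagens called numbered 13, and 9 to 14 with a mouse left out. Over all genes the V338Y calls numbered 6505, with 4491 at the unadjusted threshold and 5182 to 6448 with a mouse left out. Those of wild-type numbered 4940, and 3431 to 4837 with a mouse left out. DESeq2 gave 14 collagen calls in wild-type and 16 in V338Y mice, and the likelihood ratio test 15 and 20. Over all genes DESeq2 gave 4629 and 6307 calls, and the likelihood ratio test 4844 and 6372. The replicate block gave 16 and 21 collagen calls with age, where same-numbered mice did not deviate together. Over all genes the age calls went from 4940 to 2229 in wild-type and from 6505 to 5505 in V338Y mice with the block. Between genotypes at 19 mo it gave 1 collagen call in place of 0 (Col15a1) and 110 calls over all genes in place of 6. The collagen calls between genotypes at 3 mo and in the interaction stayed at 0. Col13a1 lost its V338Y call with DESeq2 and with no filter, and Col27a1 with DESeq2, no filter, all mice in 1 fit and the block. Some log2 differences of chain ratios changed sign with a mouse left out: between genotypes at 3 mo Col1a1 to Col1a2 ranged from −0.032 to 0.086, Col5a1 to Col5a2 from −0.011 to 0.081 and Col6a1 to Col6a2 from −0.11 to 0.017; at 19 mo Col1a1 to Col3a1 from −0.018 to 0.30, Col5a1 to Col5a2 from −0.20 to 0.021 and Col4a1 to Col4a2 from −0.0086 to 0.046; and with age in V338Y mice Col1a1 to Col1a2 from −0.029 to 0.12 and Col5a1 to Col5a2 from −0.0040 to 0.21. The cause of these changes was not tested.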
